A study of Mus musculus with 3 samples.

Results

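The spots described here were rich in pro-remodeling fibro-adipogenic progenitors (FAPs) on spatial transcriptomic sections of injured mouse muscle. They were chosen by a measured value, the theta of pro-remodeling FAPs, which is the estimated fraction of a spot's transcripts that came from that cell type. A spot with a theta of at least 0.05 was called FAP-rich, and a spot of the same section with a theta under 0.01 was called FAP-low. By this rule 665 of 2758 spots were FAP-rich, and they were 35 of 859 spots in the section at 2 days post-injury (dpi), 227 of 933 in that at 5 dpi and 403 of 966 in that at 7 dpi. The FAP-low spots numbered 507, 354 and 227, and the 317, 352 and 336 spots between the limits are described only where they add to the contrast.

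FAPs are the resident mesenchymal cells of muscle, marked by the platelet-derived growth factor receptor Pdgfra. After injury they expand, secrete collagens such as Col1a1 and matricellular proteins such as Postn, and release signals that act on muscle stem cells and on immune cells. Monocytes and macrophages that enter the wound clear dead fibers and control how many FAPs persist, and lasting FAP accumulation is known to accompany fibrosis and fatty infiltration. The levels of Pdgfra, Col1a1 and Postn in these spots were not analysed here, so the cell type name rests on the authors' deconvolution alone.

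The tibialis anterior muscles of C57BL6/J mice aged 5 months were injected with notexin, a phospholipase from snake venom that kills fibers but spares their stem cells, and 1 section was profiled at each of 2, 5 and 7 dpi. The paper gives the sex as female for its new single-cell experiments. No uninjured section was analysed here. With 1 section per time point, animal, capture area and time point cannot be told apart, so no test was made and spots were not used as replicates. A spot is a small region that can hold several cells, and all values are levels or shares over spots.

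The sections held 5710385, 10803761 and 14734531 unique molecular identifiers (UMIs, counts of distinct captured transcripts) at 2, 5 and 7 dpi, with medians of 5786, 11221 and 15135 per spot. The lowest theta of a spot was higher in shallow spots, with a Spearman's rho against UMIs of -0.82, -0.75 and -0.76, and a small theta is therefore least reliable at 2 dpi. Array barcodes recurred between sections because each capture area carries the same barcode set, and 505 were shared by all 3.

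FAP-rich spots made up 4.07%, 24.3% and 41.7% of the sections at 2, 5 and 7 dpi, with exact Clopper-Pearson 95% intervals of 2.85 to 5.62%, 21.6 to 27.2% and 38.6 to 44.9%. These intervals, like all intervals over spots below, cover the counting of spots only. The FAP-rich spots carried 4.60%, 31.0% and 50.7% of the UMIs of their sections. Their FAP theta had a median of 0.0656, 0.0794 and 0.0935 in the 3 sections, and the highest spots reached 0.141, 0.215 and 0.247. Both the number of such spots and the level within them were thus lowest in the section at 2 dpi, as the plot of cumulative shares shows. At 2, 5 and 7 dpi, 4, 65 and 185 spots had a theta of at least 0.1, and 0, 4 and 17 of at least 0.2.

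**Figure D1:**
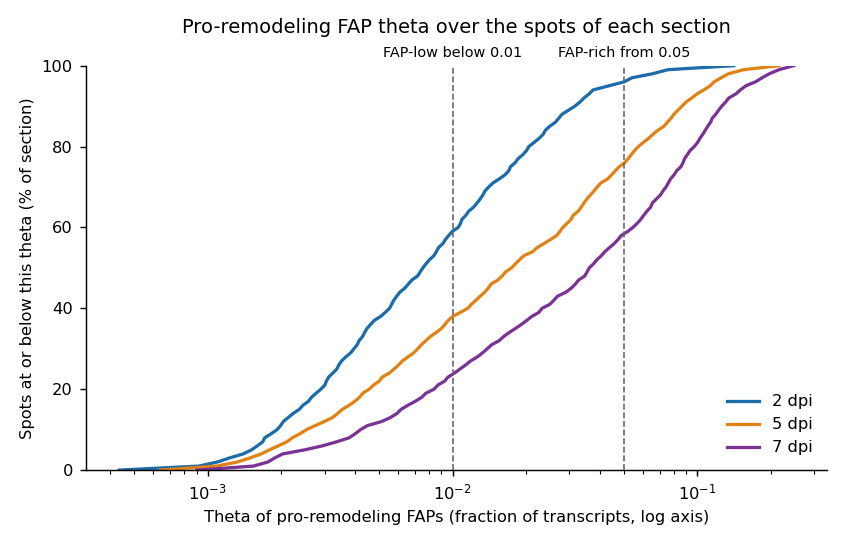
Share of the spots of each section (y axis, % of spots) with a pro-remodeling FAP theta at or below the value on the x axis (fraction of transcripts, log axis), 1 line per section. Dashed lines mark the limits of 0.01 and 0.05, and the part of each line right of 0.05 holds the 4.07%, 24.3% and 41.7% of spots that were FAP-rich.

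The limit of 0.05 cut a continuous range. The FAP-rich spots nearest to it had thetas of 0.0506, 0.0501 and 0.0504 at 2, 5 and 7 dpi, and the nearest spots below it had 0.0494, 0.0489 and 0.0496. At the lower limit the nearest FAP-low spots had 0.00994, 0.00998 and 0.00999, and the nearest spots above it 0.01003, 0.01001 and 0.01006.

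Myonuclei, the nuclei of mature fibers, took the largest part of the transcripts in both groups of spots and less in the FAP-rich group. The thetas of type IIb and type IIx myonuclei summed to a median of 0.531, 0.518 and 0.511 in FAP-rich spots at 2, 5 and 7 dpi, against 0.887, 0.902 and 0.883 in FAP-low spots. FAP-low spots were therefore mostly fiber tissue, while close to 0.5 of the transcripts in FAP-rich spots were assigned to other cells. Since the thetas of a spot sum to 1, a lower myonuclear theta leaves more for every other type, so levels, ratios, presence shares and means by band below are raw unless a rescaled value is named. As a percent of the theta that was not myonuclear, pro-remodeling FAPs had a median of 12.3%, 17.3% and 21.6% in FAP-rich spots and of 2.74%, 3.91% and 3.23% in FAP-low spots.

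Of the myonuclear types, type IIb nuclei, which belong to the fastest glycolytic fibers, had mean thetas of 0.407, 0.432 and 0.446 in FAP-rich spots and of 0.738, 0.741 and 0.717 in FAP-low spots, or 0.552, 0.584 and 0.622 times as much. Type IIx nuclei, from fast fibers of intermediate metabolism, had means of 0.0659, 0.0646 and 0.0746 against 0.0588, 0.124 and 0.104. The FAP-rich mean of type IIx was thus above the FAP-low mean at 2 dpi and below it at 5 and 7 dpi, with ratios of 1.12, 0.521 and 0.721. At 2 dpi that ratio depended on the average, since the median type IIx theta was 0.00806 in FAP-rich and 0.0166 in FAP-low spots. In spots with a myonuclear theta of 0.4 to 0.7, described below, the type IIx ratios were 1.95, 2.96 and 1.31. The direction at 5 and 7 dpi thus turned there. The number of types with a theta of at least 0.01 had a median of 12, 7 and 7 per FAP-rich spot, against 3, 3 and 4 per FAP-low spot.

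The contrast covered 25 cell types, which leaves out pro-remodeling FAPs, on which the rule rests, and fusing myocytes. A type was called higher where its mean theta in FAP-rich spots was at least 2 times that in FAP-low spots, and lower where it was at most 0.5 times. On raw theta 12 (48%), 8 (32%) and 6 (24%) of the 25 types were called higher at 2, 5 and 7 dpi. The types called lower numbered 0 (0%), 1 (4%) and 2 (8%). The median ratio over the 25 types was 1.86, 1.45 and 0.942, so higher means in FAP-rich spots were spread over most types at 2 dpi and over fewer at 7 dpi. All thetas come from the same estimate as the rule and share its sum, so these counts are a description with no test.

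Rescaling changed the picture. With the 2 myonuclei columns taken out and each remaining theta divided by what was left, 23 types stayed in the contrast. Of these, 0 (0%), 1 (4.35%) and 1 (4.35%) were called higher at 2, 5 and 7 dpi, and 6 (26.1%), 15 (65.2%) and 13 (56.5%) were called lower. When pro-remodeling FAPs were also taken out of the sum, so that their own excess could not lower the rest, 1 type (4.35%) was called higher in each section and 4 (17.4%), 13 (56.5%) and 13 (56.5%) were called lower. The type called higher on this last scale was patrolling monocytes at 2 dpi and Cx3cr1-hi M2 macrophages at 5 and 7 dpi. Fusing myocytes stayed in both rescaled sums. On the last scale they had a mean of 0.154 in FAP-rich and 0.0918 in FAP-low spots at 2 dpi, and of 0.591 and 0.184 at 5 dpi. At 7 dpi fusing myocytes reached a raw theta of 0.05 in 94.5% of FAP-rich and 22.9% of FAP-low spots. A larger share of fusing myocytes lowers the rescaled theta of the other types. Its part in the counts of lower types was not tested. The dot plot of ratios sets the raw and the rescaled values side by side.

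**Figure D2:**
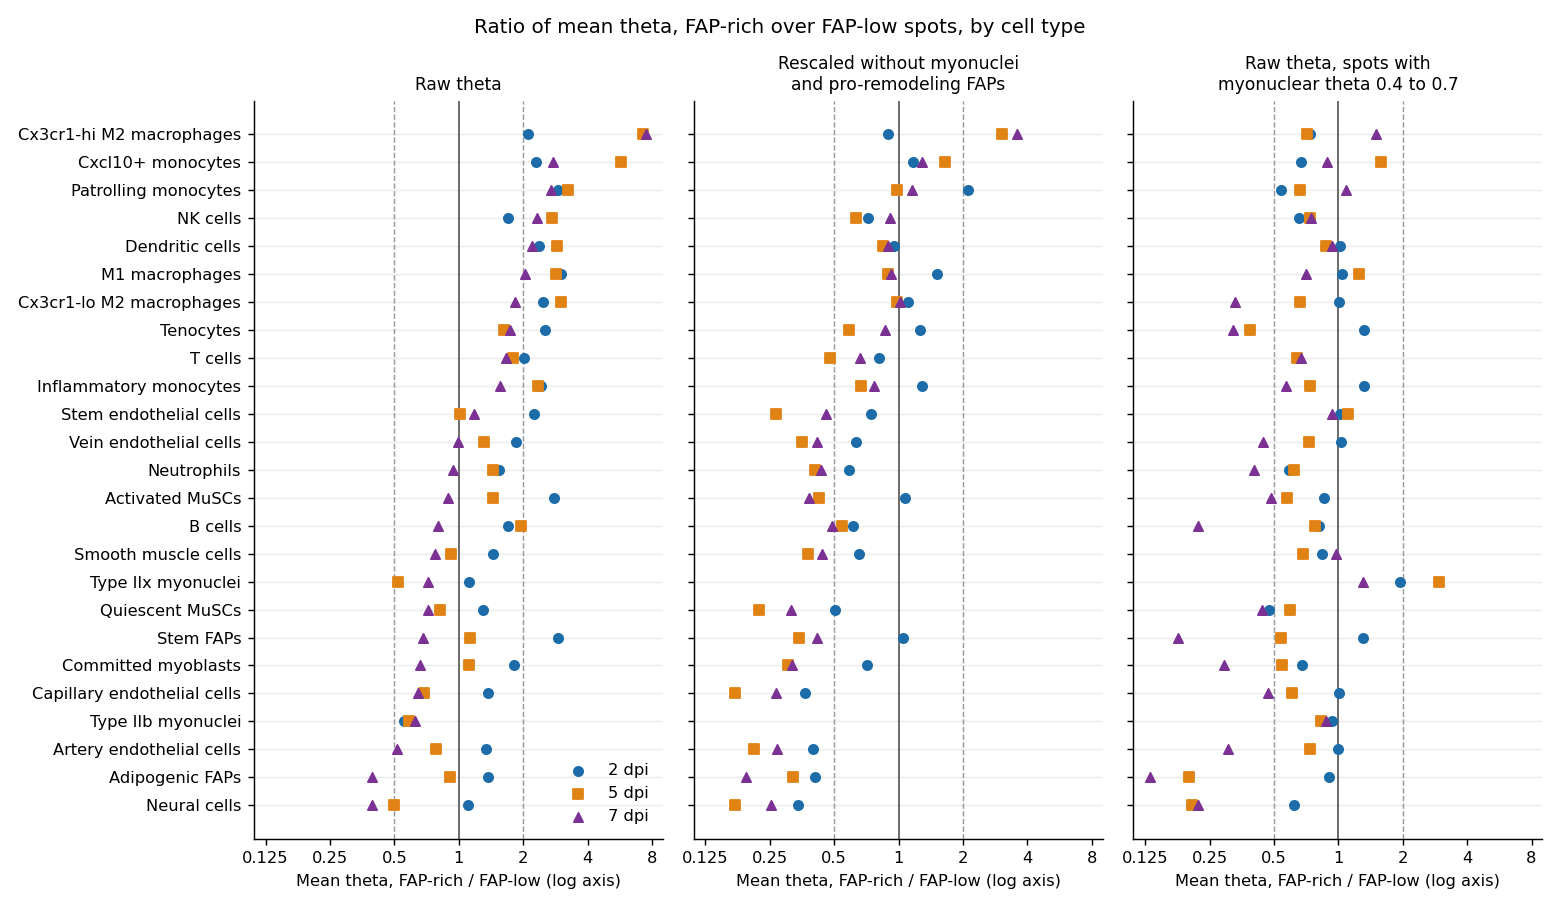
Ratio of the mean theta in FAP-rich over FAP-low spots (x axis, log axis) for each of 25 cell types (y axis, ordered by the raw ratio at 7 dpi), 1 symbol per section. The left panel gives raw theta, the middle panel theta rescaled without myonuclei and pro-remodeling FAPs (23 types), and the right panel raw theta in spots with a myonuclear theta of 0.4 to 0.7. Dashed lines mark 0.5 and 2. Cx3cr1-hi M2 macrophages stand at 7.29 and 7.48 on the left at 5 and 7 dpi, at 3.03 and 3.56 in the middle, and at 0.717 and 1.499 on the right.

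All 4 macrophage and dendritic types were called higher in FAP-rich spots on raw theta at 2 and 5 dpi, and 3 of 4 at 7 dpi. Over all 25 types, 48%, 32% and 24% were called higher at 2, 5 and 7 dpi. Rescaled without myonuclei and pro-remodeling FAPs, 0, 1 and 1 of the 4 were called higher. The median ratio of the 4 was then 1.03, 0.941 and 0.968. Cx3cr1-hi M2 macrophages, which express the fractalkine receptor and belong to the repair phase, had mean thetas of 0.0138, 0.0338 and 0.0326 in FAP-rich spots at 2, 5 and 7 dpi. In FAP-low spots they had 0.00659, 0.00463 and 0.00436, which gave ratios of 2.10, 7.29 and 7.48. The quartiles of the FAP-rich spots ran from 0.00625 to 0.0412 at 5 dpi and from 0.00823 to 0.0456 at 7 dpi, and the highest spots reached 0.273 and 0.201. The level was therefore uneven among FAP-rich spots.

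Counted by presence, Cx3cr1-hi M2 macrophages reached a theta of 0.01 in 54.3%, 59.5% and 71.5% of FAP-rich spots, with intervals of 36.6 to 71.2%, 52.8 to 65.9% and 66.8 to 75.8%. The FAP-low shares were 18.1%, 6.21% and 9.25%. Seen from the macrophage side, 74 spots at 5 dpi and 99 at 7 dpi had a theta of at least 0.05 for this type, and 50 (67.6%) and 87 (87.9%) of them were FAP-rich. These shared spots were 22.0% and 21.6% of the FAP-rich spots, so spots rich in this macrophage mostly lay among FAP-rich spots but most FAP-rich spots were not rich in it. At 2 dpi 1 of the 16 spots rich in the macrophage (6.25%) was also FAP-rich. Over all spots, 4.07%, 24.3% and 41.7% were FAP-rich at 2, 5 and 7 dpi. The shares of all spots rich in this macrophage were 1.86%, 7.93% and 10.2%.

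Cx3cr1-lo M2 macrophages, the other repair subset, had mean thetas of 0.0216, 0.00918 and 0.00969 in FAP-rich spots against 0.00875, 0.00305 and 0.00531, with ratios of 2.47, 3.01 and 1.83. Rescaled without myonuclei and pro-remodeling FAPs the ratios were 1.11, 0.986 and 1.01, so the means differed little among the remaining cells. The Cx3cr1-hi subset had 0.892, 3.03 and 3.56 on that scale, lower in FAP-rich spots at 2 dpi and higher at 5 and 7 dpi. M1 macrophages, the inflammatory subset of the early wound, had means of 0.0252, 0.00662 and 0.00573 against 0.00842, 0.00232 and 0.00282. Their raw ratios were 2.99, 2.85 and 2.03 and their rescaled ratios 1.51, 0.895 and 0.925. Dendritic cells, which present antigen, had 0.00935, 0.00653 and 0.00617 against 0.00397, 0.00226 and 0.00281, with raw ratios of 2.36, 2.89 and 2.19 and rescaled ratios of 0.951, 0.842 and 0.891. Their spread at 5 dpi was wide, since the median FAP-rich spot had 0.00277 and the highest had 0.373.

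Monocytes are the blood-borne precursors of wound macrophages. On raw theta they were called higher in FAP-rich spots for all 3 subsets at 2 and 5 dpi and for 2 of 3 at 7 dpi. Over all 25 types, 48%, 32% and 24% were called higher. Rescaled without myonuclei and pro-remodeling FAPs, 1, 0 and 0 of the 3 subsets were called higher, with median ratios of 1.29, 0.984 and 1.15. The paper describes its patrolling monocytes as high in Fabp5 and negative for Cx3cr1 and Ly6c2. Patrolling monocytes stood out at 2 dpi with a mean theta of 0.117 in FAP-rich spots, against 0.00972 and 0.00872 at 5 and 7 dpi. The FAP-low means were 0.0404, 0.00299 and 0.00323, for ratios of 2.90, 3.25 and 2.70. Rescaled without myonuclei and pro-remodeling FAPs the ratios were 2.10, 0.984 and 1.15, so the higher level among the remaining cells was seen at 2 dpi and not at 5 dpi. The FAP-rich spots at 2 dpi differed widely among themselves, with a median of 0.0697 and quartiles of 0.00884 and 0.208.

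This type was present in 71.4%, 23.8% and 25.3% of FAP-rich spots, with intervals of 53.7 to 85.4%, 18.4 to 29.9% and 21.1 to 29.9%, against 28.0%, 3.67% and 3.52% of FAP-low spots. A high level at 2 dpi was not particular to FAP-rich spots, since the 317 spots between the limits had a mean of 0.134, above the FAP-rich mean. Of the 300 spots with a patrolling monocyte theta of at least 0.05 in that section, 21 (7.00%) were FAP-rich, and these were 60.0% of the FAP-rich spots. Over all spots of that section, 4.07% were FAP-rich and 34.9% reached that monocyte level.

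Cxcl10+ monocytes, named for an interferon-induced chemokine, had mean thetas of 0.0203, 0.0137 and 0.00926 in FAP-rich spots against 0.00882, 0.00239 and 0.00336. Their ratios of 2.30, 5.73 and 2.75 fell to 1.17, 1.64 and 1.29 when rescaled without myonuclei and pro-remodeling FAPs. Inflammatory monocytes, the early recruits, had 0.0157, 0.00490 and 0.00422 against 0.00649, 0.00210 and 0.00271, with raw ratios of 2.43, 2.34 and 1.56 and rescaled ratios of 1.29, 0.667 and 0.763. Of the 25 types, 5, namely Cx3cr1-hi M2 macrophages, M1 macrophages, dendritic cells, patrolling monocytes and Cxcl10+ monocytes, were called higher on raw theta in all 3 sections, and 0 types were so in all 3 on either rescaled scale.

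The other FAP subsets did not follow the pro-remodeling one at 5 and 7 dpi. Adipogenic FAPs, the subset prone to form fat cells, had mean thetas of 0.00992, 0.00998 and 0.00896 in FAP-rich spots and 0.00727, 0.0110 and 0.0228 in FAP-low spots, so the ratio went from 1.36 at 2 dpi to 0.906 and 0.393. They were present in 40%, 27.3% and 25.8% of FAP-rich spots and in 18.1%, 22.6% and 54.6% of FAP-low spots. Rescaled without myonuclei and pro-remodeling FAPs, their ratios were 0.408, 0.322 and 0.194. At 7 dpi they were the leading type in 88 of 227 FAP-low spots (38.8%), with myonuclei, fusing myocytes and pro-remodeling FAPs left out, and in 14 of 403 FAP-rich spots (3.47%). On raw theta and presence, adipogenic FAPs were thus higher in FAP-rich spots at 2 dpi and in FAP-low spots at 7 dpi.

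Stem FAPs, the undifferentiated subset, had mean thetas of 0.0214, 0.00699 and 0.00778 in FAP-rich spots against 0.00735, 0.00617 and 0.0114. The ratio was 2.91, 1.13 and 0.682. With rescaling without myonuclei and pro-remodeling FAPs it was 1.05, 0.344 and 0.416. Stem FAPs were present in 62.9%, 18.1% and 21.3% of FAP-rich spots, against 20.1%, 14.1% and 25.6% of FAP-low spots and 35.0%, 21.0% and 28.5% of all spots. The mean of the stem subset was thus the higher one in FAP-rich spots at 2 dpi and the lower one at 7 dpi.

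Among the myogenic progenitors, which are the stem cells and myoblasts that rebuild fibers, 1 of 3 types was called higher in FAP-rich spots on raw theta at 2 dpi and none at 5 or 7 dpi. Activated muscle stem cells (MuSCs) had mean thetas of 0.0208, 0.00734 and 0.00646 against 0.00746, 0.00508 and 0.00726, with raw ratios of 2.79, 1.45 and 0.890 and rescaled ratios of 1.07, 0.424 and 0.381. Committed myoblasts, the next stage, had 0.0135, 0.00797 and 0.00715 against 0.00747, 0.00715 and 0.0109, with ratios of 1.81, 1.11 and 0.656. Quiescent MuSCs stayed under 0.01 in mean in both groups, with ratios from 0.718 to 1.29. All 3 types were called lower at 5 and 7 dpi once myonuclei and pro-remodeling FAPs were taken out of the sum. Their ratios were 0.223 to 0.424 and 0.313 to 0.381. So were 13 of all 23 types (56.5%) in each of these sections, with median ratios of 0.424 and 0.458. Fusing myocytes, the last stage before fiber formation, reached a theta of 0.05 in 14 of 35 (40%), 219 of 227 (96.5%) and 381 of 403 (94.5%) FAP-rich spots, which were 9.09%, 40.6% and 61.6% of all spots at that level. That level was reached in 12.4%, 16.1% and 22.9% of FAP-low spots and in 17.9%, 57.8% and 64.1% of all spots.

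Tenocytes, the collagen-producing cells of tendon, had mean thetas of 0.0206, 0.0117 and 0.0142 in FAP-rich spots against 0.00810, 0.00720 and 0.00820, with ratios of 2.54, 1.62 and 1.73. The direction turned at 5 and 7 dpi when rescaled without myonuclei and pro-remodeling FAPs, with ratios of 1.27, 0.588 and 0.868. The spread over spots was wide, with FAP-rich medians of 0.00641, 0.00554 and 0.00551 and highest spots of 0.152, 0.202 and 0.287. Tenocytes were present in 31.4%, 30.4% and 30.3% of FAP-rich spots and in 10.1%, 13.3% and 16.3% of FAP-low spots. Smooth muscle cells, which line larger vessels, had 0.00900, 0.00781 and 0.00779 against 0.00622, 0.00851 and 0.01004, with ratios of 1.45, 0.917 and 0.777, and of 0.650, 0.376 and 0.437 when rescaled. Neural cells, which stand for the nerve tissue of the muscle, had 0.00628, 0.00233 and 0.00421 against 0.00566, 0.00470 and 0.0107, with ratios of 1.11, 0.495 and 0.392, or 0.339, 0.171 and 0.253 when rescaled, and were the type called lower at 5 dpi. At 7 dpi the neural means lay above the medians, which were 0.00171 in FAP-low and 0.00118 in FAP-rich spots, and the highest FAP-rich spot had 0.442. In 7 dpi spots with 5000 to 10000 UMIs the raw ratio was 1.10.

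The 4 endothelial types, which form the vessel lining, had raw ratios of 1.34 to 2.24, 0.690 to 1.32 and 0.514 to 1.18 in the 3 sections. Stem endothelial cells were the 1 type called higher, at 2 dpi, with mean thetas of 0.0128 in FAP-rich and 0.00573 in FAP-low spots. At 5 and 7 dpi their means were 0.00479 and 0.00556 against 0.00474 and 0.00473. Vein endothelial cells had 0.0103, 0.00409 and 0.00409 against 0.00553, 0.00310 and 0.00415. All 4 endothelial types were called lower at 5 and at 7 dpi on the scale without myonuclei and pro-remodeling FAPs. Their ratios were 0.172 to 0.353 and 0.268 to 0.458. On that scale 13 of all 23 types (56.5%) were called lower in each of these sections, with median ratios of 0.424 and 0.458. Lymphocytes and neutrophils, also 4 types, stayed under a mean of 0.01 in both groups of every section, with raw ratios of 1.54 to 2.03, 1.45 to 2.72 and 0.803 to 2.31.

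Within single FAP-rich spots the leading type changed between the sections. With myonuclei and fusing myocytes left out, pro-remodeling FAPs had the largest theta in 13 of 35 (37.1%), 191 of 227 (84.1%) and 367 of 403 (91.1%) FAP-rich spots, with intervals of 21.5 to 55.1%, 78.7 to 88.6% and 87.8 to 93.7%. At 2 dpi patrolling monocytes led in 18 of the 35 (51.4%). With pro-remodeling FAPs also left out, the lead at 2 dpi lay with patrolling monocytes in 22 of 35 spots (62.9%, 44.9 to 78.5%) and with tenocytes in 5. At 5 dpi it lay with Cx3cr1-hi M2 macrophages in 86 of 227 spots (37.9%, 31.6 to 44.5%), Cxcl10+ monocytes in 28 and tenocytes in 22. At 7 dpi it lay with Cx3cr1-hi M2 macrophages in 192 of 403 (47.6%, 42.7 to 52.6%) and tenocytes in 41. With myonuclei, fusing myocytes and pro-remodeling FAPs left out, the most frequent leading partner in FAP-rich spots was thus a monocyte at 2 dpi. At 5 and 7 dpi it was a repair macrophage, in under 50% of spots. In FAP-rich spots at 5 and 7 dpi, fusing myocytes had mean thetas of 0.243 and 0.210, against 0.0338 and 0.0326 for that macrophage. At 2 dpi fusing myocytes had 0.0577, against 0.117 for patrolling monocytes. Patrolling monocytes also led in 112 of 507 FAP-low spots at 2 dpi (22.1%). Cx3cr1-hi M2 macrophages led in 6 of 354 FAP-low spots at 5 dpi (1.69%) and 4 of 227 at 7 dpi (1.76%). In spots with a myonuclear theta of 0.4 to 0.7, described below, fusing myocytes were kept in the count. At 2 dpi patrolling monocytes led there in 10 of 20 FAP-rich and 51 of 97 FAP-low spots, a similar share. At 5 and 7 dpi fusing myocytes led in 149 of 150 and 259 of 264 FAP-rich spots there, so the macrophage was not compared.

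The level of partner types also varied with the FAP theta itself. Cx3cr1-hi M2 macrophages at 7 dpi had mean thetas of 0.00436, 0.00972, 0.0246, 0.0404 and 0.0596 in spots with a FAP theta under 0.01, from 0.01, from 0.05, from 0.1 and from 0.2 (227, 336, 218, 168 and 17 spots). At 5 dpi the means were 0.00463, 0.0120, 0.0281 and 0.05003, and then 0.0173 in the last band, which held 4 spots. At 2 dpi they were 0.00659, 0.0163 and 0.0142, with 0.0108 in the 4 spots from 0.1. The mean was therefore higher in each successive band at 7 dpi, and at 5 dpi up to a FAP theta of 0.2. At 2 dpi the highest mean lay in the band from 0.01 to 0.05, outside the FAP-rich spots.

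Over all spots of a section (859, 933 and 966), Spearman's rho between the thetas of pro-remodeling FAPs and Cx3cr1-hi M2 macrophages was 0.58, 0.66 and 0.69. With the macrophage theta rescaled without myonuclei and pro-remodeling FAPs it was -0.11, 0.37 and 0.58, and within FAP-rich spots on raw theta -0.01, 0.29 and 0.41. For adipogenic FAPs the raw rho was 0.53, 0.08 and -0.39 over all spots, and for patrolling monocytes it was 0.58, 0.51 and 0.40. Rescaled in the same way, it was -0.27, -0.52 and -0.69 for adipogenic FAPs. For patrolling monocytes it was 0.39, -0.16 and -0.08, so the positive sign stayed at 2 dpi only. These coefficients describe spots that share a library, a range of depth and a sum of 1, and no p is given.

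**Figure D3:**
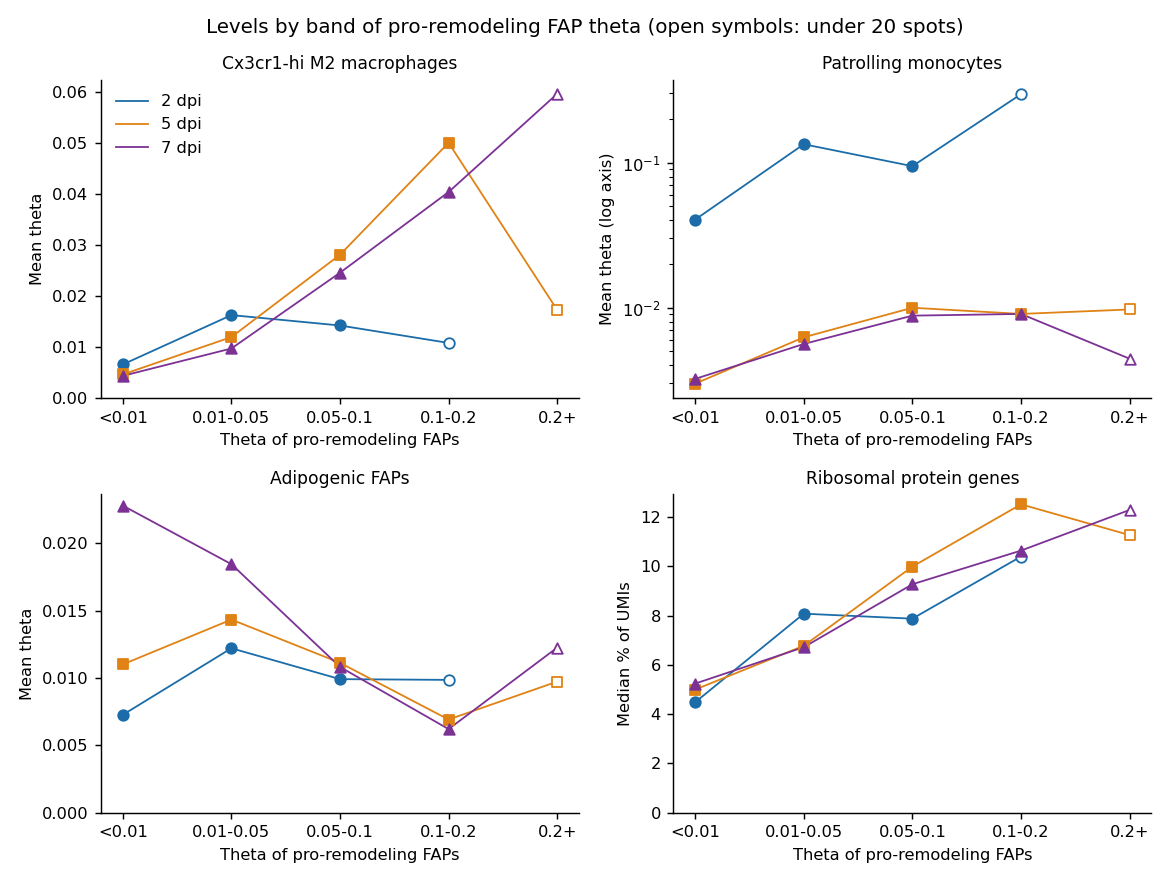
Mean theta of 3 cell types and the median percent of UMIs from ribosomal protein genes (y axes) in 5 bands of the pro-remodeling FAP theta (x axis), 1 line per section, with open symbols for bands of under 20 spots. The y axis of patrolling monocytes is logarithmic. Cx3cr1-hi M2 macrophages rise from 0.00436 to 0.0596 across the bands at 7 dpi, and adipogenic FAPs go from 0.0228 in the lowest band to 0.00621 in the band from 0.1 to 0.2.

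Gene classes that the deconvolution had left out also differed between FAP-rich and FAP-low spots. Mitochondrial genes, whose transcripts are abundant in mature fibers, had a median of 15.4%, 11.4% and 12.5% of UMIs in FAP-rich spots at 2, 5 and 7 dpi, against 33.7%, 31.6% and 27.6% in FAP-low spots. Ribosomal protein genes, which encode the translation machinery, had 8.41%, 10.7% and 10.0% against 4.49%, 5.00% and 5.24%. By medians, FAP-rich spots thus had less than 0.5 times the mitochondrial percent in each section (ratios 0.456, 0.362 and 0.453) and close to 2 times the ribosomal protein percent (1.88, 2.15 and 1.91). At 2 dpi the mitochondrial ratio was 0.611 by means, at 19.3% against 31.6%, and 0.694 by summed UMIs, at 23.0% against 33.1%.

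The groups overlapped in mitochondrial percent, most widely at 2 dpi. In 21.1%, 6.94% and 12.4% of all pairs of a FAP-rich and a FAP-low spot, the FAP-rich spot had the higher mitochondrial percent. The mitochondrial percent was under the FAP-low median in 30 of 35, 226 of 227 and 388 of 403 FAP-rich spots. The ribosomal protein percent was over the FAP-low median in 33 of 35, 226 of 227 and 399 of 403. Both percents are parts of the same UMIs. As a percent of the UMIs that were not mitochondrial, ribosomal protein genes had medians of 9.96%, 12.2% and 11.48% in FAP-rich and 6.93%, 7.36% and 7.30% in FAP-low spots.

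FAP-rich spots were deeper than FAP-low spots at 5 and 7 dpi, with a median of 13001 and 17761 UMIs against 10077 and 13059, and at 2 dpi had 6255 against 6665. They held more genes in every section, with medians of 2403, 3406 and 3944 against 1695, 2022 and 2568. Hemoglobin genes, a mark of trapped red blood cells, made up 0.0457%, 0.0656% and 0.0645% of the summed UMIs of FAP-rich spots and 0.0278%, 0.159% and 0.227% of those of FAP-low spots. The part of blood and of depth in the contrasts of cell types was not tested.

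**Figure D4:**
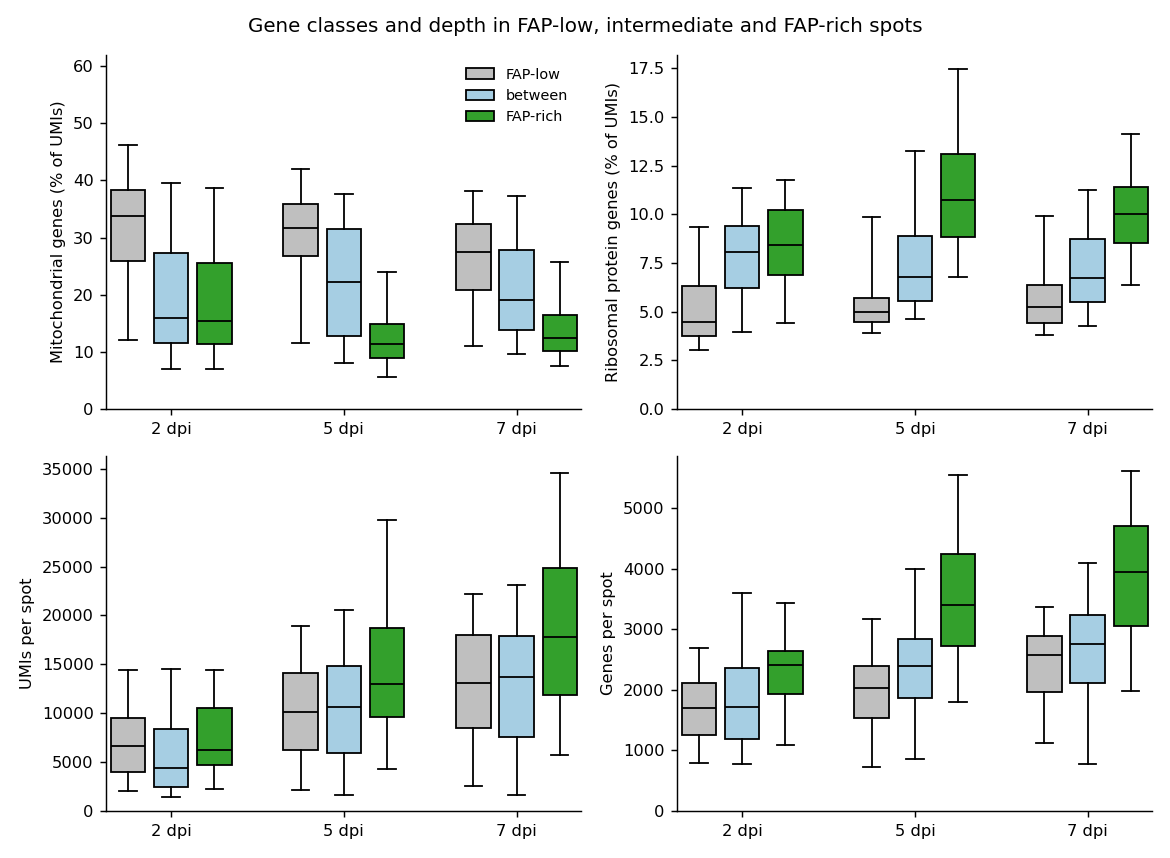
Percent of UMIs from mitochondrial and ribosomal protein genes, UMIs and genes per spot (y axes) in FAP-low, intermediate and FAP-rich spots of each section (x axis). Boxes span the quartiles with the median as a line, and whiskers run from the 5th to the 95th percentile of spots. The FAP-rich median of the mitochondrial percent lies under the lower quartile of FAP-low spots in each section.

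Because FAP-low spots were mostly fiber tissue, the contrast was repeated in spots whose myonuclear theta was between 0.4 and 0.7, a range chosen after seeing the data. This left 20, 150 and 264 FAP-rich spots against 97, 18 and 25 FAP-low spots. In them the ratio of the mitochondrial percent was 1.197, 1.089 and 0.984, and that of the ribosomal protein percent 0.980, 1.001 and 1.121. Between spots in this range, the ratios of both gene classes thus lay between 0.980 and 1.197, and the lower mitochondrial percent of FAP-rich spots at 2 and 5 dpi turned to a slightly higher one. The groups still differed in median myonuclear theta at 5 and 7 dpi. It was 0.558, 0.547 and 0.522 in FAP-rich spots and 0.559, 0.602 and 0.589 in FAP-low spots at 2, 5 and 7 dpi.

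Cx3cr1-hi M2 macrophages in this range had mean thetas of 0.00956, 0.0167 and 0.0276 in FAP-rich and of 0.0129, 0.0233 and 0.0184 in FAP-low spots, so the ratio was 0.739, 0.717 and 1.499. At 7 dpi the FAP-rich mean was the higher one, and at 2 and 5 dpi the FAP-low mean was. Patrolling monocytes at 2 dpi had 0.0539 against 0.1002, for a ratio of 0.538. Adipogenic FAPs had 0.00947, 0.00793 and 0.00745 against 0.0105, 0.0397 and 0.0564, for ratios of 0.903, 0.1998 and 0.132. The lower adipogenic FAP level in FAP-rich spots at 5 and 7 dpi was thus larger as a fold between spots of this range. Tenocytes had ratios of 1.32, 0.388 and 0.323. Type IIx myonuclei had mean thetas of 0.0874, 0.0810 and 0.0697 against 0.0449, 0.0274 and 0.0533, for ratios of 1.95, 2.96 and 1.31. The FAP-low spots of this range were few at 5 and 7 dpi and shallower, with a median of 4416, 9592 and 4936 UMIs against 7537, 11767 and 17611.5 in the FAP-rich spots.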

How the data were processed

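Visium libraries, in which barcoded spots under a tissue section capture polyadenylated RNA, were read for 3 sections, assigned to 2, 5 and 7 dpi by the treatment in the sample labels. Per the labels' processing notes and the study's methods, the authors aligned the reads to mm10 with Space Ranger (1.0), picked spots over tissue by hand and used Seurat (3.2.1). The deposited counts are total UMIs and genes per spot, with no normalization. The deposited percent values give mitochondrial, hemoglobin and ribosomal protein UMIs of a spot, and each percent times its UMIs was whole to within 1e-06. The deposited theta fractions sum to 1 over 27 cell types. The authors estimated them per spot with BayesPrism, a deconvolution of mixed transcripts, from marker genes of a single-cell reference without mitochondrial and ribosomal protein genes. The methods describe fewer reference groups than the 27 of the table. The gene-level matrix and positions of spots were not analysed here, so no marker was checked, no map was drawn and no thinning to equal depth was made.

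Spots were grouped by the theta of pro-remodeling FAPs. Theta was averaged as the mean over spots, percents and depth as the median, and presence was a theta of at least 0.01. Rescaled theta was divided by its sum without the myonuclei columns, or without these and pro-remodeling FAPs. Fusing myocytes stayed in both sums. Types were given with values in every section where the mean reached 0.01 in either group of a section, or the ratio passed 2 or 0.5 in all 3 sections (18 of 25 types), and others by ranges. The members, groups of types and limits were chosen with earlier results of these data known. Intervals are exact Clopper-Pearson at 95%. Smallest differences between spots are limited by depth, which ranged from medians of 5786 to 15135 UMIs per spot. The ratio code was tested on simulated data. Alternatives were other limits (0.1 or 0.005 in theta), spots with 5000 to 10000 UMIs, the other average, weighting by UMIs, ribosomal percent of non-mitochondrial UMIs, presence at 0.02 or 0.05, and, chosen after seeing the data, spots with a myonuclear theta of 0.4 to 0.7. Values were computed in Python 3.11.15 with numpy 2.4.6, pandas 2.3.3 and scipy 1.17.1, and drawn with matplotlib 3.10.9.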

Additional observations from a re-analysis of the deposited data

Results flagged for a closer look

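In 4 cell types the raw ratio of mean theta in FAP-rich over FAP-low spots was called higher or lower in at least 1 section, by the limits of 2 and 0.5, and lay on the other side of 1 in another. Stem FAPs went from 2.91 at 2 dpi and 1.13 at 5 dpi to 0.682 at 7 dpi. Adipogenic FAPs went from 1.36 to 0.906 and 0.393. Activated MuSCs went from 2.79 and 1.45 to 0.890. Neural cells went from 1.11 to 0.495 and 0.392, and at 7 dpi to 1.10 in spots with 5000 to 10000 UMIs. These turns are on raw theta. Rescaled without myonuclei and pro-remodeling FAPs, adipogenic FAPs (0.408, 0.322 and 0.194) and neural cells (0.339, 0.171 and 0.253) were below 1 in every section, and activated MuSCs and stem FAPs had 1.07 and 1.05 at 2 dpi and were below 1 at 5 and 7 dpi. The difference between the sections was not tested, since each time point had 1 section, and the section at 2 dpi had 35 FAP-rich spots and the lowest depth. Animal, capture area and time point cannot be told apart.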

How the results depend on the processing

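No paired analysis was possible because each time point had 1 section and no replicate. The values below are ratios of FAP-rich over FAP-low spots unless a count or share is named, a ratio was taken as moved beyond a factor of 1.25, and the cause of a change was not tested. The raw contrast called 12, 8 and 6 types higher and 0, 1 and 2 lower at 2, 5 and 7 dpi. The direction of these called ratios turned most often under the 3 alternatives that take the myonuclear theta into account. There 17, 13 and 15 of them turned, against 2 with a FAP-rich minimum of 0.1. In spots with 5000 to 10000 UMIs 1 turned, and 0 when spots were weighted by UMIs. The rescalings kept fusing myocytes in the sum, and the part of these was not tested.

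Without myonuclei in the sum, the count of types called higher went from 12, 8 and 6 to 0, 1 and 1 at 2, 5 and 7 dpi, and the count called lower from 0, 1 and 2 to 6, 15 and 13. Spots with a rescaled FAP theta of at least 0.05 were 26.4%, 68.7% and 79.1% of spots. The ratios that turned were, at 2 dpi, activated MuSCs 0.972, Cx3cr1-hi M2 macrophages 0.778, Cx3cr1-lo M2 macrophages 0.990, dendritic cells 0.837, stem FAPs 0.942, stem endothelial cells 0.659 and T cells 0.723. At 5 dpi they were Cx3cr1-lo M2 macrophages 0.842, dendritic cells 0.701, inflammatory monocytes 0.564, M1 macrophages 0.757, NK cells 0.550 and patrolling monocytes 0.848. At 7 dpi they were dendritic cells 0.716, M1 macrophages 0.741, NK cells 0.741 and patrolling monocytes 0.928.

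Without myonuclei and pro-remodeling FAPs, the counts were 1, 1 and 1 higher and 4, 13 and 13 lower. The ratios that turned were, at 2 dpi, Cx3cr1-hi M2 macrophages 0.892, dendritic cells 0.951, stem endothelial cells 0.742 and T cells 0.808. At 5 dpi they were Cx3cr1-lo M2 macrophages 0.986, dendritic cells 0.842, inflammatory monocytes 0.667, M1 macrophages 0.895, NK cells 0.634 and patrolling monocytes 0.984. At 7 dpi they were dendritic cells 0.891, M1 macrophages 0.925 and NK cells 0.909.

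In spots with a myonuclear theta of 0.4 to 0.7, chosen after seeing the data, 0, 1 and 0 types were called higher and 1, 3 and 13 lower. The type called higher at 5 dpi was type IIx myonuclei. Its ratios, which had not been called over all spots, went from 0.521 and 0.721 to 2.96 and 1.31 at 5 and 7 dpi. The mitochondrial percent had ratios of 1.197, 1.089 and 0.984 and the ribosomal protein percent 0.980, 1.001 and 1.121, and UMIs at 2 dpi 1.71. The called ratios of theta that turned were, at 2 dpi, activated MuSCs 0.855, Cx3cr1-hi M2 macrophages 0.739, Cxcl10+ monocytes 0.670, patrolling monocytes 0.538 and T cells 0.637. At 5 dpi they were Cx3cr1-hi M2 macrophages 0.717, Cx3cr1-lo M2 macrophages 0.662, dendritic cells 0.880, inflammatory monocytes 0.736, NK cells 0.739 and patrolling monocytes 0.661. At 7 dpi they were Cxcl10+ monocytes 0.882, dendritic cells 0.932, M1 macrophages 0.707 and NK cells 0.741.

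With a FAP-rich minimum of 0.1, which left 4 spots at 2 dpi, FAP-rich spots were 0.466%, 6.97% and 19.2% of spots, 2 and 3 types were called lower at 2 and 5 dpi, the mitochondrial ratio at 2 dpi was 0.303, and dendritic cells (0.793) and tenocytes (0.657) turned at 2 dpi. With a FAP-low maximum of 0.005, 0 and 1 types were called lower at 5 and 7 dpi. In spots with 5000 to 10000 UMIs these counts were 0 and 0, FAP-rich spots were 18.8% and 38.0% at 5 and 7 dpi, and the mitochondrial ratio at 2 dpi was 0.353. There neural cells (1.10) and UMIs (0.899) turned at 7 dpi. With the other average, 1 type was called lower at 2 dpi, the mitochondrial ratio at 2 dpi was 0.611 and that of UMIs 1.06. Weighted by UMIs the mitochondrial ratio at 2 dpi was 0.694. Of non-mitochondrial UMIs, the ribosomal protein ratio was 1.44 and 1.66 at 2 and 5 dpi. For presence, the share of FAP-low spots was subtracted from that of FAP-rich spots. This difference was taken as moved when it shifted by more than 0.5 times the width of the FAP-rich interval. A minimum of 0.02 or 0.05 left 35 of these differences unmoved and moved 61. Small thetas in shallow spots limit the contrast at 2 dpi most.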

Other observations

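Hemoglobin genes were listed at 0 UMIs in 22 of 35, 27 of 227 and 37 of 403 FAP-rich spots of the sections at 2, 5 and 7 dpi. In FAP-low spots this was so in 379 of 507, 62 of 354 and 14 of 227.

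Lymphocytes were scarce in both groups, but natural killer cells, which kill stressed cells without prior priming, had ratios of 1.71, 2.72 and 2.31 on raw theta. They were singled out after their values were seen. They were present in 14.3%, 4.85% and 5.46% of FAP-rich spots against 8.68%, 0.282% and 0.441% of FAP-low spots, and their mean theta stayed under 0.00662. Over all spots the shares were 18.9%, 2.25% and 3.21%. At 2 dpi the FAP-rich share, 5 of 35 spots with an interval of 4.81 to 30.3%, was thus below that of all spots. Rescaled without myonuclei and pro-remodeling FAPs, their ratios were 0.719, 0.634 and 0.909.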
